A study of Mus musculus with 3 samples.

Results

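Chemokines that draw blood progenitors into the fetal thymus, and the receptors that read them, were counted in single cells of embryonic thymuses. The 7 genes were the ligands *Ccl21a*, *Ccl19* and *Cxcl12* and the receptors *Ccr9*, *Ccr7*, *Cxcr4* and *Cxcr3*, out of 27933 genes with at least 1 UMI. They were chosen as named genes, without a threshold on their values. Each ligand was followed in the cells that could release it, which were Epcam-positive epithelial, Pdgfra-positive mesenchymal and Cdh5-positive endothelial cells. Each receptor was followed in Ptprc-positive (CD45) hematopoietic cells. A cell entered a gate with at least 2 UMIs of its marker when these made up at least 80% of its UMIs over the 4 markers. A UMI (unique molecular identifier) stands for 1 captured RNA molecule.

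Thymic lobes taken at E13 to E13.5 gave 3 droplet libraries of 3′ gene expression, 1 each from wild type (control), Tbx1neo2/neo2 and Foxn11089/1089 embryos, all of strain C57BL/6. Tbx1neo2/neo2 embryos carry a neomycin insertion in an intron of *Tbx1*, which lowers the expression of this pharyngeal transcription factor. They model the small thymus of 22q11.2 deletion syndrome. Foxn11089/1089 embryos carry a small deletion in *Foxn1*, the transcription factor that drives thymic epithelial differentiation. Both alleles are present in every cell of the embryo, so none of the 3 libraries isolates a change to a single cell type. The number of embryos behind a library and their sex were not given in the sources used here.

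A thymus has no progenitors of its own and is seeded by cells that arrive from the fetal liver. The receptor Ccr9 reads Ccl25 from thymic epithelium, Ccr7 reads Ccl21 and Ccl19, and Cxcr4 reads Cxcl12. Before blood vessels enter the organ, Ccl21 from the neighbouring parathyroid primordium and Ccl25 from the thymic primordium are both known to attract progenitors. Cxcr3, the receptor of interferon-induced chemokines such as Cxcl9 and Cxcl10, is best known from activated and innate-like lymphocytes.

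Each genotype was 1 library, so no spread between replicates could be measured and no difference between genotypes was tested. Levels are in CPM, the UMIs of a gene scaled by all UMIs of the same cells, so that libraries of unequal depth are on 1 scale. Ratios to the control are on the log2 scale. Ranges in parentheses are 95% intervals (exact Poisson for a level, conditional binomial for a ratio, Clopper-Pearson for a share). They cover the counting of molecules or cells but not differences between embryos. Those of levels and ratios also leave out the uneven spread of a gene's UMIs over cells. The kept cells numbered 5932 in the control, 5516 in the Tbx1neo2/neo2 and 11772 in the Foxn11089/1089 library, with median depths of 13410, 20732.5 and 14652 UMIs. Over all genes with at least 30 UMIs, the median ratio to control in a gate lay between 0.17 and 0.44, so a member's ratio near these values did not stand apart from the other genes. Between 17 and 28 cell barcodes were shared by any pair of libraries.

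*Tbx1* was no lower where its allele was labelled. It reached 1.39 CPM in the control, 4.81 CPM in the library labelled Tbx1neo2/neo2 and 5.43 CPM in the Foxn11089/1089 library. These whole-library levels rest on 114, 656 and 1102 UMIs, and the cells of the libraries differed. The authors describe the embryonic thymus as lacking *Tbx1* expression, so the levels do not check the allele. The genotype of the library labelled Tbx1neo2/neo2 is given as its label throughout. *Foxn1* stood at 38.4, 34.6 and 76.5 CPM in the same order, and because 3′ tags lie outside a small internal deletion they check nothing about that allele. Red blood cells, which should lack all 7 genes, served as the background that free RNA in the droplets can give. They had at least 50% hemoglobin UMIs and no UMI of the gate markers, and numbered 329, 334 and 1820 cells.

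The stretches upstream of the 2 abundant ligand genes are shown because *Ccl21a* and *Cxcl12* held nearly all UMIs of the 3 ligands, and both were low in thymic epithelial clusters of the Foxn11089/1089 library. *Ccl21a* (ENSMUSG00000094686) has 4 exons at GRCm38 chr4:42772860-42773993 on the minus strand, 16282 bases from *Ccl19* (ENSMUSG00000071005, chr4:42754525-42756577, minus strand). *Cxcl12* (ENSMUSG00000061353) lies at chr6:117168535-117181367 on the plus strand. The 250 bases before each start site are from RefSeq on GRCm38.p6, in the direction of transcription, at chr4:42773992-42774241 for *Ccl21a* and chr6:117168285-117168534 for *Cxcl12*. Capitals mark a match to GACGC or its reverse complement GCGTC, the core letters described for Foxn1 binding.
Ccl21a: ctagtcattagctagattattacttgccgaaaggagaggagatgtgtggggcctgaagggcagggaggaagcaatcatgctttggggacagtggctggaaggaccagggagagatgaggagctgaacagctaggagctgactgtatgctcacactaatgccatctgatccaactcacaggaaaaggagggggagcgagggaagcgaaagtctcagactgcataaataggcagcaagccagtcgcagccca
Cxcl12: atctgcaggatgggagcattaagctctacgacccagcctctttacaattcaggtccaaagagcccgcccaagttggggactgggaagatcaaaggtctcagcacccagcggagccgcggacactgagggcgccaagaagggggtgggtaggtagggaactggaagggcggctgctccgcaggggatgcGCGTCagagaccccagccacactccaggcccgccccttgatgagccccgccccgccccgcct
The single match in *Cxcl12* began 62 bases before the start site. Of 32851 promoter windows of this length, 22.6% held GACGC or GCGTC, and the windows of *Ccl21a*, *Ccl19*, *Ccr9*, *Cxcr4* and *Cxcr3* held neither. The epithelial ligand gene *Ccl25* held 1 match, 56 bases before 1 of its 2 listed start sites. TATAAA or TTTATA, the letters of a TATA box, were in 12.4% of windows and, among these members, in *Cxcr4* alone, where 2 overlapping matches began 32 and 30 bases before the start. A match describes letters in a window, and its absence says only that they are not in these 250 bases.

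*Ccl21a* was an epithelial transcript held by few cells. In Epcam-positive cells it had 9879 UMIs in the control, 3692 in the library labelled Tbx1neo2/neo2 and 73228 in the Foxn11089/1089 library. These made 291 CPM (285 to 297), 86.7 CPM (84.0 to 89.6) and 729.9 CPM (724.7 to 735.2). The gate thus held less *Ccl21a* than control in the first mutant library, at a ratio of −1.75 (−1.80 to −1.69), and more in the second, at 1.33 (1.30 to 1.36). The level in red blood cells was 1.21, 0.16 and 5.89 CPM in the same order. Epcam-positive cells carried 88.3%, 72.1% and 97.6% of all *Ccl21a* UMIs of their library.

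Few epithelial cells made up these sums. The 10% of Epcam-positive cells with most *Ccl21a* held 96.3% of it in the control, 95.5% in the library labelled Tbx1neo2/neo2 and 99.1% in the Foxn11089/1089 library, and the median cell had none. A *Ccl21a* UMI was seen in 19.1% (17.4 to 20.9), 20.02% (17.3 to 23.0) and 23.8% (22.5 to 25.1) of the cells as sequenced, at median depths of 16582, 46025 and 20964.5 UMIs per cell. After each cell was thinned to 2000 UMIs (16, 8 and 53 cells had fewer and were dropped), the shares were 11.2%, 6.62% and 10.8%. Red blood cells treated alike gave 0.62%, 0 of 330 cells (upper limit 1.11%) and 1.16%, at median depths of 8352, 18363.5 and 12337 UMIs.

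Clusters were rebuilt without the members and named from fixed markers. *Ccl21a* was unevenly spread among the epithelial ones. Parathyroid-like cells, with *Pth* in every cell of the control and Foxn11089/1089 libraries, numbered 26 in the control gate and 336 in the Foxn11089/1089 gate. They held 2740 UMIs or 27.7% of the gate's *Ccl21a* in the former, and 71410 UMIs or 97.5% in the latter. Their level was 9009 CPM in the control and 5753 CPM in the Foxn11089/1089 library, a ratio of 0.639-fold (0.615 to 0.664). Among single parathyroid-like cells, the lowest, median and highest counts were 5, 85 and 443 UMIs in the control and 0, 159.5 and 1485 in the Foxn11089/1089 library. These counts are not scaled for depth, and the median depths of the cells were 11754 and 24823 UMIs. In the library labelled Tbx1neo2/neo2, 1 gated cell fell in this cluster, and it had no UMI of *Ccl21a* or *Pth*.

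The marker *Gcm2*, the transcription factor of parathyroid identity, was seen in 84.6% of the parathyroid-like cells of the control and in 96.1% of those of the Foxn11089/1089 library. Likely doublets made up a part of this cluster, and without them its *Ccl21a* level was 11084 CPM in 19 control cells and 6124 CPM in 262 Foxn11089/1089 cells. Parathyroid-like cells were the highest of all epithelial clusters in both libraries that held them. Parathyroid tissue lies beside the thymus at this age, and the share of it that a dissection takes along was not tested.

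In the control, medullary-like cells (with *Krt5* and *Krt17*, keratins of the thymic medulla) were next. In the Foxn11089/1089 library they stood below cortical-like cells. The *Ccl21a* level of medullary-like cells was 874 CPM in 355 control cells, 253 CPM in 151 cells of the library labelled Tbx1neo2/neo2 and 13.1 CPM in 754 Foxn11089/1089 cells. The ratios to control were −1.79 (−1.86 to −1.72) and −6.06 (−6.24 to −5.88). The Foxn11089/1089 value stood little above the 5.89 CPM of red blood cells in that library. The medullary-like cells of that library also had less of the keratins *Krt5* (1100.3 against 3163 CPM in the control), *Krt17* (77.2 against 2139 CPM) and *Krt14* (0.93 against 44.2 CPM). The claudin *Cldn3* was higher there (98.7 against 53.7 CPM), and *Cldn4* was at 68.7 against 73.1 CPM, so that the cells given this name were not alike in the libraries.

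Cortical-like cells, the largest epithelial group with 1506, 516 and 2450 gated cells, had 62.7, 58.9 and 21.1 CPM of *Ccl21a*. The ratio was −0.09 (−0.19 to 0.01) for the library labelled Tbx1neo2/neo2 and −1.57 (−1.68 to −1.46) for the Foxn11089/1089 library. Their cortical markers did not move together in the latter. *Psmb11*, a subunit of the thymoproteasome, was at 14.1 CPM against 273 CPM in the control, *Prss16*, the thymus-specific serine protease, at 6.27 against 332 CPM, and *Tbata* at 1.26 against 56.8 CPM. *Ctsl*, the protease cathepsin L, was at 462 against 822 CPM, and *Foxn1* was higher than control, at 178 against 89.5 CPM. With parathyroid-like and thyroid-like cells left out, the Epcam-positive cells had 212 CPM in the control, 102 CPM in the library labelled Tbx1neo2/neo2 and 20.7 CPM in the Foxn11089/1089 library. *Ccl21a* in these cells was lower than control in both, by ratios of −1.05 (−1.11 to −0.99) and −3.36 (−3.43 to −3.28), so the direction of the Foxn11089/1089 value turned.

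**Figure D1:**
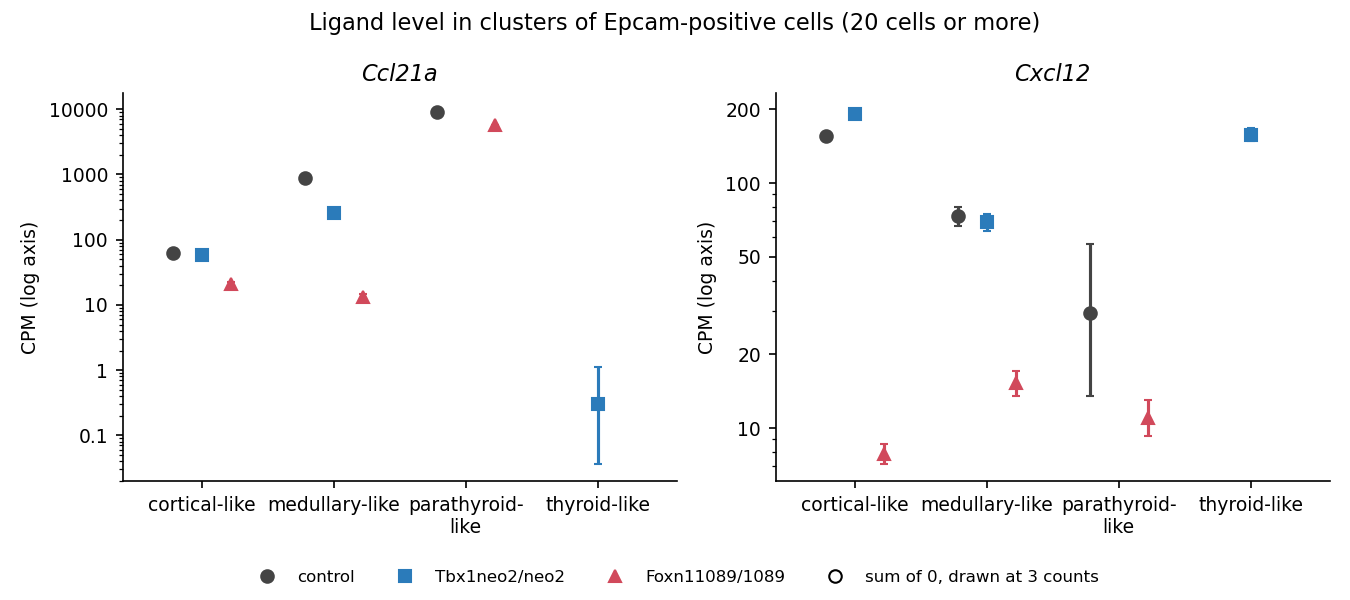
Level of *Ccl21a* (left) and *Cxcl12* (right) in Epcam-positive cells of 4 named epithelial clusters, in CPM on a log axis, with 1 marker per library and 95% Poisson intervals, for groups of at least 20 cells. *Ccl21a* reached 9009 and 5753 CPM in parathyroid-like cells, while in medullary-like cells it ran from 874 CPM in the control to 13.1 CPM in the Foxn11089/1089 library.

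Endothelial cells carried *Ccl21a* in a handful of cells with *Prox1*, the transcription factor of lymphatic endothelium, a vessel type that uses Ccl21 to guide Ccr7-bearing cells. Cdh5-positive cells numbered 51, 94 and 108, and held 569 UMIs (688 CPM) in the control, 1321 (375 CPM) in the library labelled Tbx1neo2/neo2 and 402 (74.9 CPM) in the Foxn11089/1089 library. Of these UMIs, 99.1%, 99.9% and 93.5% were in the 3, 16 and 12 cells with a *Prox1* UMI. Outside them no cell had 10 or more. The ratios to control were −0.88 (−1.02 to −0.73) and −3.20 (−3.39 to −3.01), but the highest cell alone gave 374, 446 and 271 UMIs. Without that cell the levels were 241, 252 and 24.7 CPM, which left the control and the library labelled Tbx1neo2/neo2 nearly level.

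Mesenchymal cells showed little *Ccl21a* beyond the background. The sums of 26, 17 and 225 UMIs in Pdgfra-positive cells made 3.85, 0.46 and 6.20 CPM, in the order control, Tbx1neo2/neo2 and Foxn11089/1089. Ptprc-positive cells had 2.01, 0.33 and 5.92 CPM. Both sets followed the 1.21, 0.16 and 5.89 CPM of red blood cells from library to library.

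The *Ccl21a* name covers 2 identifiers that were summed, and almost all UMIs were on the chromosome 4 copy, with 0, 0 and 4 on ENSMUSG00000095320, a copy on an unplaced scaffold. The gene belongs to a cluster of near-identical copies, so not every read of it need have been counted under its name. How many were missed was not tested. *Gm21541*, the copy with most UMIs after *Ccl21a*, had 41, 14 and 374 UMIs over all barcodes.

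*Ccl19*, the other ligand of Ccr7, had few UMIs in any library. Epcam-positive cells held 19 UMIs in the control, 4 in the library labelled Tbx1neo2/neo2 and 1 in the Foxn11089/1089 library, or 0.56 CPM (0.34 to 0.87), 0.094 CPM (0.026 to 0.24) and 0.010 CPM (0.00025 to 0.056). The ratio was −2.57 (−4.59 to −0.98) for the first mutant library and −5.81 (−11.19 to −3.16) for the second. The control UMIs came from 14 cells with at most 4 UMIs each. No *Ccl19* UMI was found in Pdgfra-, Cdh5- or Ptprc-positive cells of any library. The upper limits for a count of 0 were 0.546, 0.099 and 0.102 CPM in the mesenchymal cells. They were 4.46, 1.05 and 0.688 CPM in the far fewer endothelial cells.

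**Figure D2:**
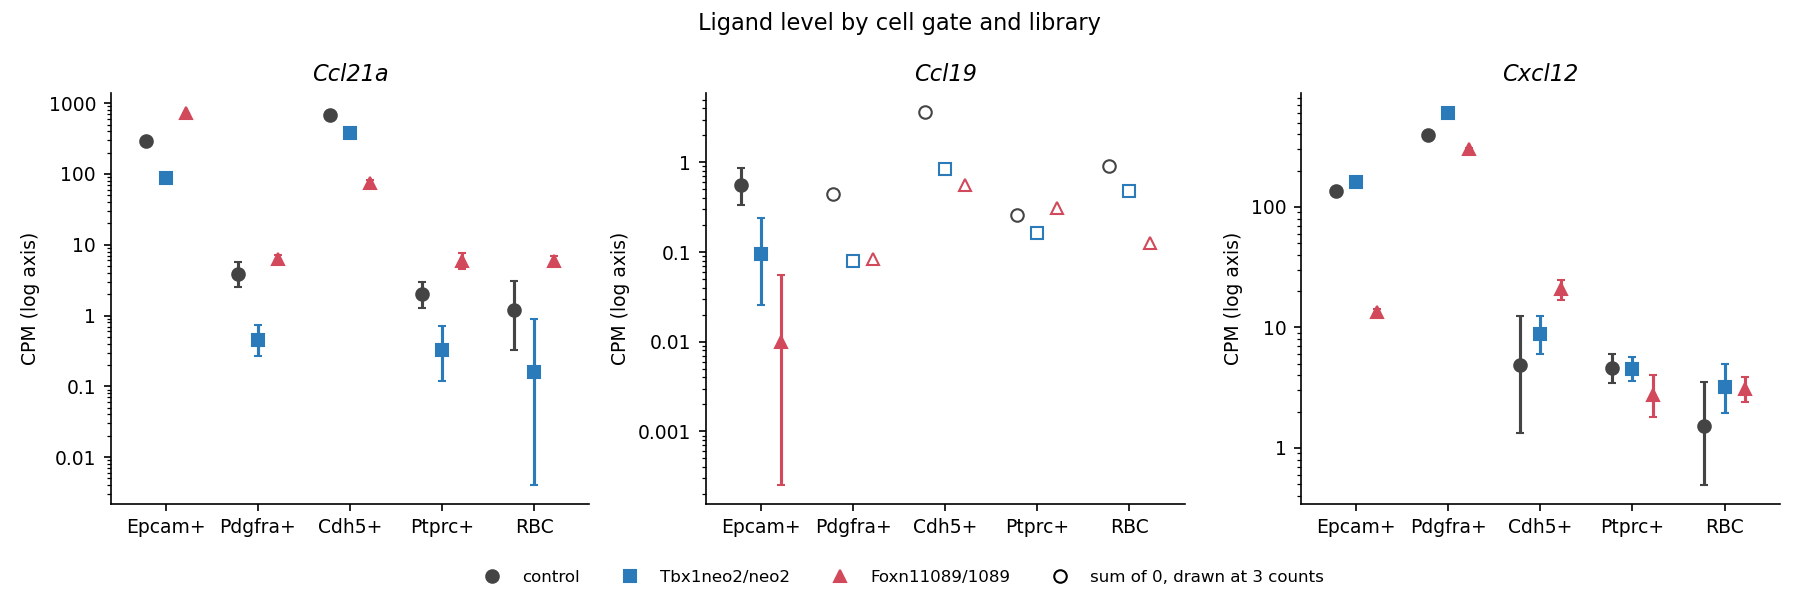
Level of *Ccl21a*, *Ccl19* and *Cxcl12* in the cell gates and in red blood cells (RBC), in CPM on a log axis, with 1 marker per library and 95% Poisson intervals, open markers standing at the level of 3 counts where the sum was 0. *Cxcl12* was highest in Pdgfra-positive cells of every library and fell to 13.4 CPM in the Epcam-positive cells of the Foxn11089/1089 library.

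In the Epcam gate, 3 of the 7 members had at least 30 UMIs over the libraries compared. *Ccl21a* alone was at least 2-fold lower in the library labelled Tbx1neo2/neo2, and none was 2-fold higher, against 4.57% of genes lower and 16.9% higher. In the Foxn11089/1089 library *Cxcl12* was lower and *Ccl21a* higher, where 7.51% and 18.9% of genes passed the same lines. In the Pdgfra gate 1 of 3 members, *Ccl21a*, was lower in the library labelled Tbx1neo2/neo2 (background 3.55% lower, 17.2% higher). Its levels there, from 26 and 17 UMIs, followed those of red blood cells, as given above. None of 3 members passed in the Foxn11089/1089 library (4.26% lower, 6.27% higher).

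*Cxcl12*, the ligand of Cxcr4 that keeps progenitors near stroma, had a mesenchymal and an epithelial source. In Pdgfra-positive cells its sums were 2696 UMIs in the control, 22540 in the library labelled Tbx1neo2/neo2 and 10957 in the Foxn11089/1089 library. The levels of 399 CPM (384 to 415), 604 CPM (596 to 612) and 302 CPM (296 to 307) put the first mutant library above and the second below the control. The ratios were 0.60 (0.54 to 0.66) and −0.40 (−0.46 to −0.34), neither of them past 2-fold, beside medians over all genes of 0.37 and 0.17. Thinned to 2000 UMIs per cell, 44.3%, 54.5% and 37.5% of the mesenchymal cells had a *Cxcl12* UMI (79.0%, 88.7% and 78.8% as sequenced, at median depths of 9488, 25709 and 14501 UMIs). Red blood cells gave 0.31%, 0.30% and 0.61%.

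The level of *Cxcl12* also varied among the mesenchymal clusters. In cluster 1, led by *Sfrp2*, *Cxcl12* was at 515, 993 and 451 CPM, and in cluster 11, led by *Ibsp*, at 819, 727 and 655 CPM. In cluster 9, led by *Col3a1*, *Lum* and *Aldh1a2*, it was at 184, 265 and 82.5 CPM. The library labelled Tbx1neo2/neo2 was above the control in clusters 1, 5 and 9 (ratios 0.95, 0.54 and 0.53) and below it in cluster 11 (−0.17, −0.31 to −0.03). The Foxn11089/1089 library was below the control in all 4, by ratios of −0.19 to −1.16. These 4 had at least 20 gated cells in each library compared and at least 30 UMIs. Other mesenchymal clusters were not compared, among them the pericyte-like one, with 16 cells in the control.

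Epithelial *Cxcl12* was present in the control and the library labelled Tbx1neo2/neo2 and low in the Foxn11089/1089 library. Epcam-positive cells held 4629, 6863 and 1341 UMIs, or 136 CPM (132 to 140), 161 CPM (157 to 165) and 13.4 CPM (12.7 to 14.1). The ratio was 0.24 (0.19 to 0.30) for the library labelled Tbx1neo2/neo2, under the 0.40 of the median gene, and with median-of-ratios scaling it turned to −0.13. For the Foxn11089/1089 library it was −3.35 (−3.44 to −3.26), or 0.098-fold. The thinned shares of cells with a UMI were 23.0%, 26.3% and 2.48% (71.5%, 87.6% and 15.5% as sequenced).

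The low *Cxcl12* of the Foxn11089/1089 library held in both thymic epithelial groups. Cortical-like cells had 155, 191 and 7.87 CPM, with ratios of 0.30 (0.24 to 0.36) and −4.30 (−4.44 to −4.16). Medullary-like cells had 73.1, 69.0 and 15.2 CPM, with ratios of −0.08 (−0.26 to 0.10) and −2.27 (−2.48 to −2.05). Parathyroid-like cells had 29.6 CPM in the control and 11.0 CPM in the Foxn11089/1089 library, and the label Tbx1neo2/neo2 held 102 thyroid-like cells with 157 CPM. Red blood cells stood at 1.51, 3.19 and 3.07 CPM. Unnamed cluster 22, of which every cell was a likely doublet, held 24.6% of the gate's *Cxcl12* in the Foxn11089/1089 library, where it was 3.0% of the gate's cells. Without likely doublets the ratio of the whole gate was −4.00.

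*Ccl25*, the ligand of Ccr9 and a known target of Foxn1, is no member but took a course like that of epithelial *Cxcl12*. It had 597, 522 and 87.1 CPM in Epcam-positive cells, with ratios of −0.20 (−0.22 to −0.17) and −2.78 (−2.81 to −2.74). In thinned cells with a *Cxcl12* UMI, *Ccl25* was also seen in 66.6% (control), 59.7% (labelled Tbx1neo2/neo2) and 10 of 100 cells (Foxn11089/1089), against 40.2%, 33.7% and 11.1% of cells without one. Cells with *Ccl21a* held *Ccl25* about as often as cells without it in the control, at 47.3% against 46.1%. The shares were 43.4% against 40.4% in the library labelled Tbx1neo2/neo2 and 5.96% against 11.7% in the Foxn11089/1089 library.

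The share of *Cxcl12* held by each gate differed between the libraries. Pdgfra-positive cells carried 26.4% of the library's *Cxcl12* in the control, 65.7% in the library labelled Tbx1neo2/neo2 and 68.1% in the Foxn11089/1089 library, while Epcam-positive cells carried 45.3%, 19.99% and 8.34%. Pdgfra-positive cells were 11.2%, 24.3% and 19.2% of the kept cells and Epcam-positive cells 33.5%, 14.7% and 34.7%. Epcam-positive cells were thus about as frequent in the Foxn11089/1089 library as in the control, at the 136 and 13.4 CPM given above. In the control, 2821 *Cxcl12* UMIs were in cells of no gate. The Pdgfra gate took 46.1%, 48.8% and 61.4% of the cells in mesenchymal clusters. The Epcam gate took 78.1%, 57.1% and 78.8% of those in epithelial clusters, so the shares also depend on what the gates took. How tissue was taken or dissociated cannot be told apart from the genotype.

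Endothelial *Cxcl12* rested on few molecules. Cdh5-positive cells had 4 UMIs in the control, 31 in the library labelled Tbx1neo2/neo2 and 111 in the Foxn11089/1089 library, or 4.84 CPM (1.32 to 12.4), 8.81 CPM (5.98 to 12.5) and 20.7 CPM (17.0 to 24.9). The ratios were 0.86 (−0.64 to 2.83) and 2.10 (0.70 to 3.997), and 1 cell of the Foxn11089/1089 library gave 33 of its 111 UMIs. Without likely doublets the latter ratio was 0.87. Of 3 members with at least 30 UMIs in this gate, *Cxcr4* was lower in both comparisons and *Ccl21a* lower and *Cxcl12* higher in the Foxn11089/1089 library, beside 4.04% lower and 26.4% higher genes for the label Tbx1neo2/neo2 and 4.41% and 15.7% for Foxn11089/1089.

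Receptors were counted in 578, 299 and 319 Ptprc-positive cells, at median depths of 20301, 61692 and 28876 UMIs per cell. Of the members with at least 30 UMIs there, 1 of 5 (*Ccr9*) was at least 2-fold higher in the library labelled Tbx1neo2/neo2 and none lower, beside 13.3% of genes higher and 2.82% lower. In the Foxn11089/1089 library 3 of 6 were higher (*Ccr9*, *Cxcr3* and *Ccl21a*, the last at the level of red blood cells) and none lower, beside 11.4% and 5.4%. The gate was not made of the same cells in each library. Thymocyte-like cells were 79.6%, 66.9% and 54.2% of it, cluster 19 (led by *Gzma*, *Ifitm1*, *Ccl5* and *Gzmb*) 11.4%, 19.4% and 13.8%, dendritic-like cells 5.54%, 2.01% and 17.9%, and macrophage-like cells 3.11%, 10.7% and 10.3%. Its 2-UMI limit kept 37.4%, 54.5% and 46.8% of the cells in hematopoietic clusters. Thymocyte-like cells were also led by *Gzma* and *Ifitm1*, so these genes do not set cluster 19 apart. Both clusters held at least 3 markers of the thymocyte list and at least 3 of the innate lymphoid list.

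*Ccr9* (ENSMUSG00000029530, chr9:123678439-123784330, plus strand), the receptor of Ccl25, was higher than control in both mutant libraries. It had 37 UMIs in the control, 181 in the library labelled Tbx1neo2/neo2 and 233 in the Foxn11089/1089 library. These made 3.23 CPM (2.27 to 4.45), 9.91 CPM (8.52 to 11.5) and 23.8 CPM (20.8 to 27.1). The UMIs came from 21, 31 and 64 cells, and the ranges do not cover which cells were sampled. The ratios were 1.62 (1.10 to 2.17) and 2.88 (2.38 to 3.42). A UMI was seen in 3.63%, 10.4% and 20.1% of cells as sequenced. After thinning to 2000 UMIs the shares were 1.04% (0.38 to 2.25), 2.01% (0.74 to 4.32) and 4.09% (2.19 to 6.89). These ranges overlapped for every pair of libraries. No red blood cell of any library had a *Ccr9* UMI.

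Within the gate, *Ccr9* was highest in cluster 19. There it reached 19.3, 58.5 and 102.9 CPM in 66, 58 and 44 cells, with ratios of 1.60 (0.91 to 2.38) and 2.42 (1.71 to 3.20). Thymocyte-like cells had 1.52, 3.11 and 15.7 CPM, with ratios of 1.04 (0.17 to 1.99) and 3.37 (2.58 to 4.26). The order control, Tbx1neo2/neo2, Foxn11089/1089 was thus the same in both clusters. At a clustering resolution of 0.3 no cluster apart from the thymocyte-like cells was led by *Gzma*, and those cells, gated or not, had 2.03, 8.38 and 22.7 CPM.

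*Cxcr4* (ENSMUSG00000045382, chr1:128588199-128592293, minus strand), the receptor of Cxcl12, was higher than control in the library labelled Tbx1neo2/neo2 and near the control in the Foxn11089/1089 library. Its sums of 222, 681 and 211 UMIs gave 19.4 CPM (16.9 to 22.1) in the control, 37.3 CPM (34.5 to 40.2) in the library labelled Tbx1neo2/neo2 and 21.6 CPM (18.7 to 24.7) in the Foxn11089/1089 library. The ratios were 0.94 (0.72 to 1.17), short of 2-fold, and 0.15 (−0.12 to 0.43), beside medians over all genes of 0.36 and 0.23. The Foxn11089/1089 library and the control did not differ beyond counting error. The share of cells with a UMI was 30.1%, 70.9% and 35.4% as sequenced and 4.17%, 6.69% and 2.83% after thinning.

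*Cxcr4* was at like levels in both lymphoid groups. Thymocyte-like cells had 19.6, 40.8 and 22.9 CPM and cluster 19 had 20.3, 33.6 and 17.8 CPM. Outside the hematopoietic cells, Epcam-positive cells had 4.51, 5.76 and 5.75 CPM, and Cdh5-positive cells had 26.6 CPM (16.7 to 40.3), 5.68 CPM (3.47 to 8.77) and 6.90 CPM (4.86 to 9.51) from 22, 20 and 37 UMIs. Endothelial cells with *Gja4* or *Gja5*, connexins of arteries, held 18, 20 and 31 of these UMIs.

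*Ccr7* (ENSMUSG00000037944, chr11:99144196-99155077, minus strand), the receptor of Ccl21 and Ccl19, was rare. Its 20, 16 and 17 UMIs in Ptprc-positive cells gave 1.74 CPM (1.07 to 2.69) in the control, 0.88 CPM (0.50 to 1.42) in the library labelled Tbx1neo2/neo2 and 1.74 CPM (1.01 to 2.78) in the Foxn11089/1089 library. The ratios of −0.99 (−2.04 to 0.03) and −0.01 (−1.03 to 1.0003) both included 0. In the Foxn11089/1089 library 65 UMIs lay in the 110 dendritic-like cells, of which 54 were in cells outside the gate and 31 in 2 cells. With a gate of at least 1 Ptprc UMI, which admits more of these cells, the Foxn11089/1089 ratio was 1.99, and over whole hematopoietic clusters it was 1.74. The control had 4 *Ccr7* UMIs in 87 dendritic-like cells.

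*Cxcr3* (ENSMUSG00000050232, chrX:101731535-101734269, minus strand) was counted with 31, 52 and 104 UMIs. Its levels were 2.70 CPM (1.84 to 3.84) in the control, 2.85 CPM (2.13 to 3.73) in the library labelled Tbx1neo2/neo2 and 10.6 CPM (8.68 to 12.9) in the Foxn11089/1089 library. The ratios were 0.07 (−0.59 to 0.76) and 1.97 (1.38 to 2.60). Cluster 19 held most of it, at 24.3, 14.6 and 70.1 CPM, and its ratios there were −0.73 (−1.53 to 0.08) and 1.53 (0.85 to 2.25). As sequenced, cells with a UMI of both *Ccr9* and *Cxcr3* numbered 4, 9 and 26, out of 17, 21 and 40 cells with *Cxcr3*. This was 65.0% of the cells with *Cxcr3* in the Foxn11089/1089 library, 42.9% in the library labelled Tbx1neo2/neo2 and 23.5% in the control. These cells were not thinned and the libraries differed in depth, so the shares are not on 1 scale.

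**Figure D3:**
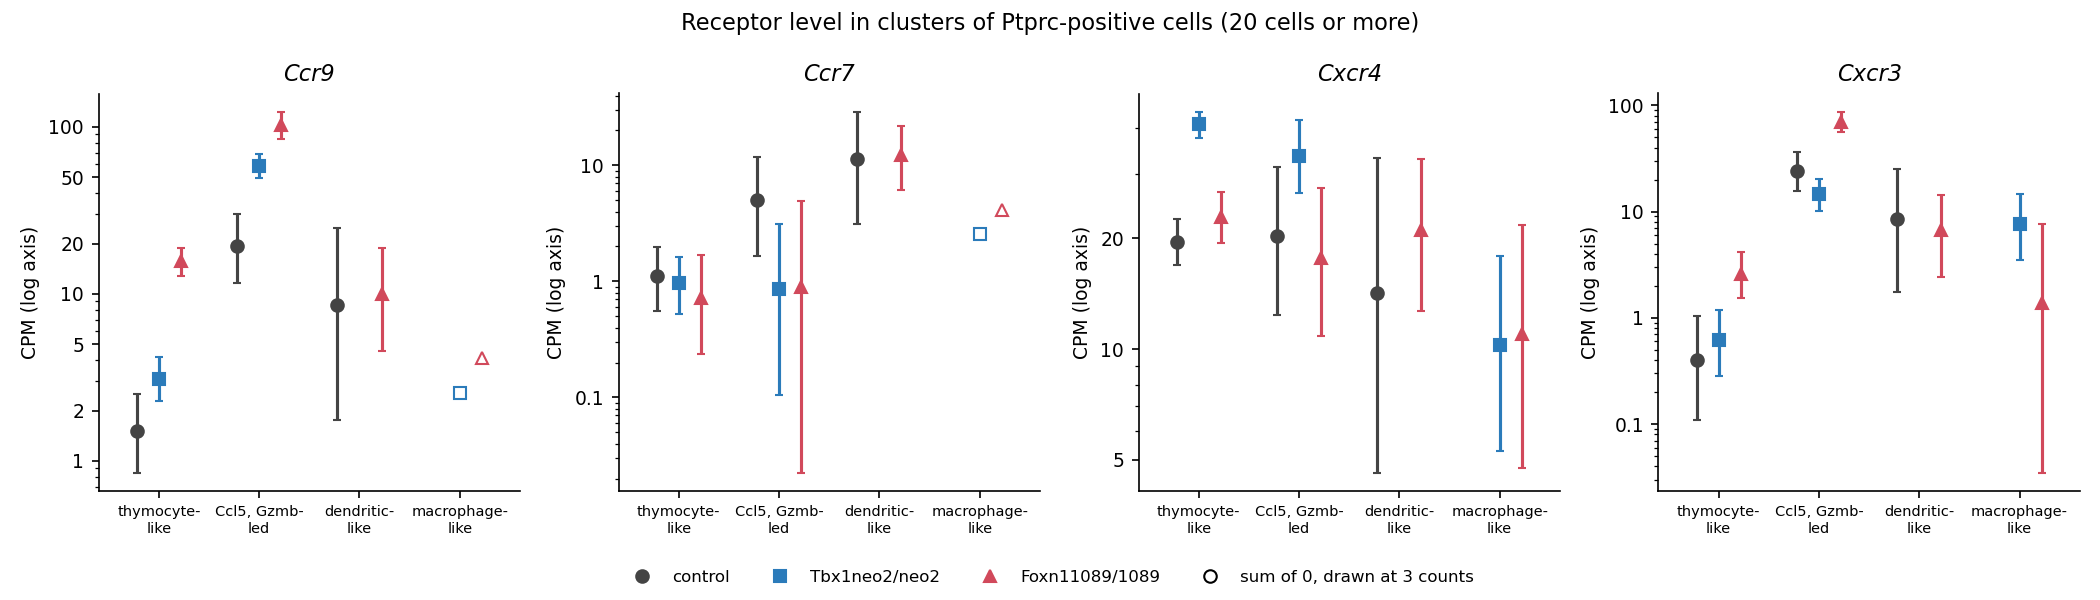
Level of the receptors *Ccr9*, *Ccr7*, *Cxcr4* and *Cxcr3* in clusters of Ptprc-positive cells, in CPM on a log axis, with 1 marker per library and 95% Poisson intervals, open markers standing at the level of 3 counts where the sum was 0, for groups of at least 20 cells. *Ccr9* and *Cxcr3* were highest in cluster 19 (led by *Ccl5* and *Gzmb* among others), at 102.9 and 70.1 CPM in the Foxn11089/1089 library, while *Cxcr4* was at like levels in thymocyte-like cells and cluster 19 of each library.

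The Ptprc-positive cells also differed in the genes of early T cell stages. *Il2ra*, which marks the step after entry, was at 67.0, 104 and 25.8 CPM, and *Kit*, the receptor of stem cell factor, at 68.6, 84.2 and 45.3 CPM. *Tcf7*, a transcription factor of T cell commitment, was at 159, 257 and 108 CPM, and *Flt3*, a receptor of early progenitors, at 4.27, 8.76 and 17.6 CPM. Cells were thinned to 5000 UMIs and sorted by *Kit* and *Il2ra*. *Ccr9* was then seen in 2 of 130, 7 of 85 and 7 of 58 cells with *Kit* alone, and in 2.40%, 3.40% and 8.43% of cells with neither. Cells with *Kit* and *Il2ra* numbered 22, 25 and 2, and those with *Il2ra* alone 76, 42 and 9, so that stages past entry were too few in the Foxn11089/1089 library to compare. *Cxcr4* was seen in 9 of 130, 12 of 85 and 6 of 58 cells with *Kit* alone, and in 4 of 22 and 5 of 25 cells with both in the first 2 libraries.

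**Figure D4:**
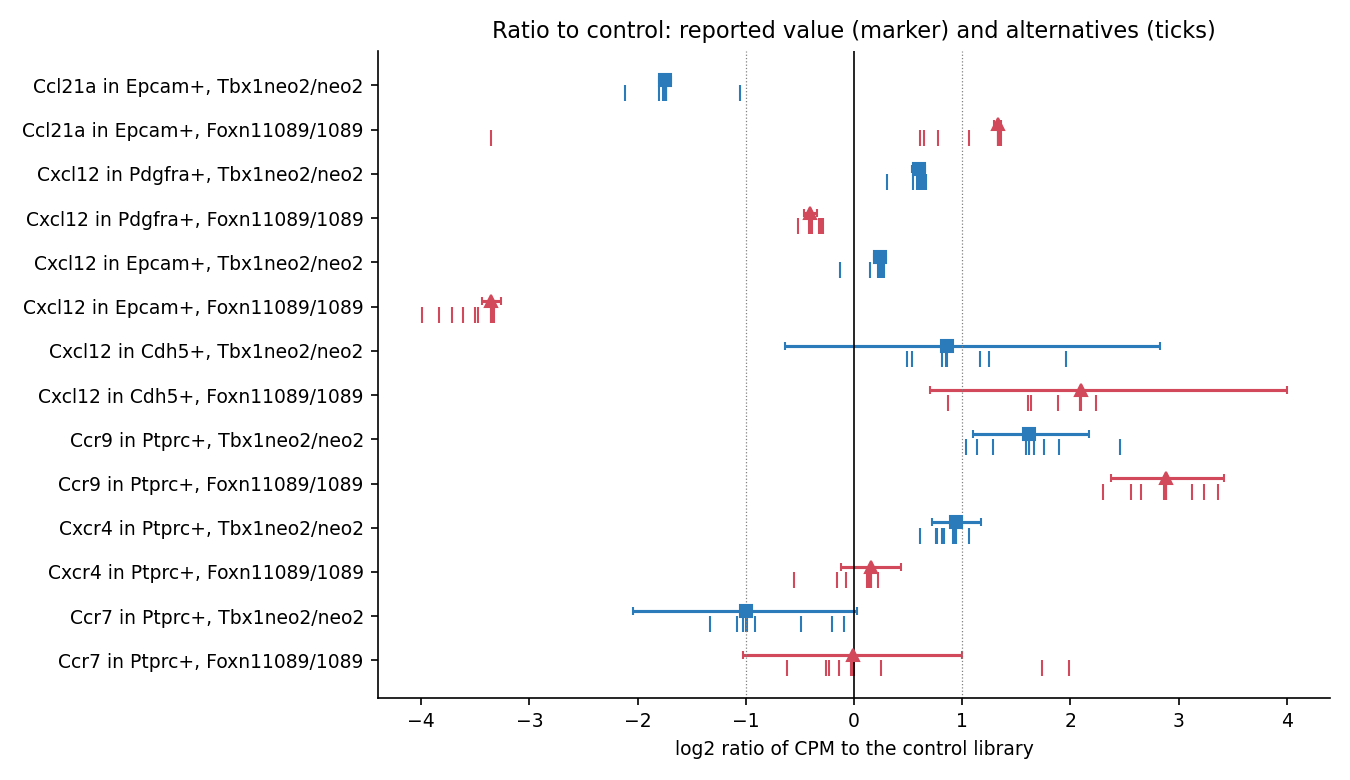
Log2 ratio of CPM to the control for 7 pairings of a member with a cell gate in each mutant library, the marker with its 95% interval giving the reported value and the ticks the values under other settings. Dotted lines stand at 2-fold. *Ccr9* stayed right of 1 in both libraries and *Cxcl12* in Epcam-positive Foxn11089/1089 cells stayed left of −3, while *Ccl21a* in Epcam-positive Foxn11089/1089 cells ran from −3.36 to 1.36 and *Ccr7* in Ptprc-positive Foxn11089/1089 cells from −0.62 to 1.99.

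Genes whose levels followed a member most closely over 59 cluster-by-library profiles (22 clusters or groups of clusters, log2 of CPM + 1) are given as a description, since profiles of a library share its depth and free RNA. *Cxcl12* was nearest to *Akap12*, *Ptn* and *Sulf1* (Pearson r of 0.90 each). *Ccr9* was nearest to *1700003C15Rik* (0.96), *Cd96* (0.91) and *Cd160* (0.91), and *Cxcr3* to *Cd200r4* (0.96), *AW112010* (0.96) and *Ms4a4b* (0.92). *Ccl21a* was less like any gene (*Rapgef5* 0.80, *Lpin3* 0.77, *Apba2* 0.77), as were *Cxcr4* (*Chn2* 0.80, *Arhgdib* 0.79, *Cmtm7* 0.79) and *Ccr7* (*Ccl17* 0.76, *Klrb1f* 0.76, *Siglecg* 0.75). The 25 UMIs of *Ccl19* were too few to read its nearest genes, *Lpo*, *Krt72* and *Krt6a*.

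Among the other chemokine receptors, 14 were listed. In Ptprc-positive cells 5 of the 7 with at least 30 UMIs were past 2-fold higher in the library labelled Tbx1neo2/neo2 and 6 of 8 in the Foxn11089/1089 library, and none was lower. Their median ratios were 1.29 and 1.97, beside 0.36 and 0.23 over all genes of the gate, of which 13.3% and 11.4% were past 2-fold higher and 2.82% and 5.4% lower. *Ccr2*, a receptor of monocytes, was at 10.8, 43.5 and 40.6 CPM, and *Cx3cr1*, a receptor of macrophages, at 12.1, 65.5 and 45.6 CPM. The share of macrophage-like cells in the gate, given above, was also higher in both libraries, and its part in these values was not tested.

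Of 26 other ligands, 15 had enough UMIs for the label Tbx1neo2/neo2 in Ptprc-positive cells (5 higher, 1 lower, median ratio 0.41) and 13 for Foxn11089/1089 (10 higher, none lower, median 2.07), against the same background. *Xcl1*, a chemokine of innate lymphocytes, was at 2.62, 0.22 and 50.6 CPM, *Ccl5* at 118, 121 and 337 CPM, and *Ccl3* at 7.85, 31.3 and 113 CPM. In Epcam-positive cells of the Foxn11089/1089 library 8 of 18 ligands were higher and 6 lower, with a median ratio of 0.28 beside 0.30 over all genes, of which 18.9% were higher and 7.51% lower. The lower ones included *Ccl25* and *Cxcl10*, a ligand of Cxcr3 (29.3, 36.3 and 2.90 CPM), and the higher ones *Cxcl14* (13.8, 16.0 and 40.1 CPM). *Ccl3* was also among the higher ones (0.21, 0.85 and 2.36 CPM) and *Ccl5* among the lower (27.7, 5.26 and 1.55 CPM). Both were higher in Ptprc-positive cells of every library. The Epcam gate held 2 macrophage-like cells in the control and 17 in the Foxn11089/1089 library, with 6.90% and 12.8% likely doublets. Carry-over from hematopoietic cells was not tested. For the label Tbx1neo2/neo2, 3 of 13 ligands were higher and 2 lower in Epcam-positive cells (median −0.20). Of all genes 16.9% were higher and 4.57% lower, with a median of 0.40, so the share of higher ligands lay near the background.

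Atypical receptors bind chemokines without signalling through G proteins and so shape how much ligand is free. *Ackr3*, which takes up Cxcl12, was at 23.4, 65.4 and 38.4 CPM in Pdgfra-positive cells, with ratios of 1.48 (1.25 to 1.72) and 0.71 (0.48 to 0.96). *Ackr4*, which takes up Ccl19, Ccl21 and Ccl25, was an epithelial gene at 7.01, 3.27 and 6.50 CPM, with ratios of −1.10 (−1.41 to −0.79) and −0.11 (−0.33 to 0.11). Red blood cells had 10.3, 23.4 and 21.9 CPM of *Ackr3* and at most 1 UMI of *Ackr4* in any library. Ptprc-positive cells had only 0.26, 0.38 and 0.61 CPM of *Ackr3*, and Epcam-positive cells 0.50, 2.16 and 3.27 CPM. Red blood cells therefore do not give the free-RNA background for *Ackr3*.

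Adhesion genes of progenitor entry made a list of 11. In Ptprc-positive cells 9 could be compared, of which 1 was past 2-fold higher for the label Tbx1neo2/neo2 (median ratio 0.63), and 2 higher and 1 lower for Foxn11089/1089 (median 0.24). Of all genes 13.3% and 11.4% were higher, and 2.82% and 5.4% lower, with medians of 0.36 and 0.23. *Selplg*, the selectin ligand PSGL-1 used in thymic entry, was at 121, 123 and 96.1 CPM, and *Itga4*, an integrin subunit that binds Vcam1, at 278, 344 and 328 CPM. In Epcam-positive cells of the Foxn11089/1089 library 6 of 10 were lower (median −1.06), beside 7.51% of all genes and a median of 0.30, among them *Vcam1* (17.1, 21.7 and 3.57 CPM) and *Icam1* (37.3, 54.4 and 16.2 CPM).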

How the data were processed

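Lobes were digested and profiled as droplet 3′ libraries. The authors made the counts with Cell Ranger 3.0.0 on mm10 and deposited them as raw UMI counts per gene and barcode, 1 matrix per genotype. Barcodes entered with 200 genes or more and less than 20% of UMIs from mitochondrial genes. Scrublet (scanpy 1.11.5) ranked cells, and 0.8% per 1000 barcodes were marked as likely doublets and kept in. Clusters came from Seurat 5.3.0 (R 4.3.3) at resolution 0.8, drawn without the members among the variable genes, and were named from marker lists by a scoring rule set after the clusters were seen. These names are not the authors'. Sums, exact intervals and thinning used Python 3.11.15, numpy 2.4.6 and scipy 1.17.1, and the scripts were tested on simulated data. Every member is described in every gate. Other genes are named from fixed lists or as the 3 nearest in profile. The members and lists were chosen with earlier results of these data known. Libraries held 82936619, 137498422 and 204655055 UMIs. Intervals cover counting error only. Alternatives changed the gate, doublets, thinning depth, scaling, filters and resolution. Some genes of the lists are counted but not reported by name here.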

Additional observations from a re-analysis of the deposited data

Results flagged for a closer look

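*Ccl21a* in the Foxn11089/1089 library stood on opposite sides of the control in 2 kinds of cell. The log2 ratio was 1.33 in Epcam-positive cells and −3.20 in Cdh5-positive cells. Without parathyroid-like and thyroid-like cells the epithelial ratio was −3.36, on the same side as the endothelial one. In the whole gates *Cxcl12* took the reverse sides, with 2.10 in Cdh5-positive and −3.35 in Epcam-positive cells. The endothelial *Cxcl12* value rests on 4 control UMIs, and the endothelial *Ccl21a* on few cells with *Prox1*. With 1 library per genotype, neither difference between cell types was tested.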

How the results depend on the processing

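Of 201 values under alternative settings, 138 moved by less than their counting interval (counts by less than 1.5 times), 62 moved further and 1, of a ratio past 2-fold, changed sign. No paired analysis was possible because each genotype had 1 library, and leaving out a replicate was not possible for the same reason. That value was *Ccl21a* in Epcam-positive cells of the Foxn11089/1089 library, −3.36 without parathyroid-like and thyroid-like clusters. Its other moved ratios were 0.78 with a gate of 1 UMI and none of the other markers, 0.61 with cells thinned to 2000 UMIs, 0.64 as a mean over cells and 1.06 with median-of-ratios scaling. For the label Tbx1neo2/neo2 it was −1.80 over cluster classes, −2.11 with median-of-ratios scaling and −1.05 without those clusters. *Cxcl12* in Pdgfra-positive cells was 0.66 with the 1-UMI gate and 0.31 with median-of-ratios scaling for the label Tbx1neo2/neo2, and for Foxn11089/1089 −0.32 (1-UMI gate), −0.29 (cluster classes), −0.29 (thinned), −0.30 (mean over cells) and −0.52 (median of ratios). In Epcam-positive cells it was 0.14 (classes) and −0.13 (median of ratios) for the label Tbx1neo2/neo2, and −3.72 (1-UMI gate), −3.84 (classes), −4.00 (doublets out), −3.47 (thinned), −3.50 (mean over cells) and −3.61 (median of ratios) for Foxn11089/1089. *Ccr9* was 2.46 with the 1-UMI gate and 1.04 in thymocyte-like cells for the label Tbx1neo2/neo2, and 2.30 thinned for Foxn11089/1089. *Cxcr4* was 0.61 with median-of-ratios scaling for the label Tbx1neo2/neo2, and −0.16 over classes and −0.56 thinned for Foxn11089/1089. *Ccr7* for Foxn11089/1089 was 1.99 with the 1-UMI gate and 1.74 over classes. Ratios short of 2-fold changed sign too: *Cxcl12* in Epcam-positive cells for the label Tbx1neo2/neo2 kept its sign in 9 of 10 alternatives, and *Cxcr4* and *Ccr7* for Foxn11089/1089 in 7 of 10 each. The cause of these shifts was not tested.

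With no minimum of UMIs, the members past 2-fold numbered 4 and 4 (Epcam), 2 and 2 (Pdgfra), 3 and 5 (Cdh5) for the label Tbx1neo2/neo2 and Foxn11089/1089, and 2 in Ptprc-positive cells for the former. With at least 100 UMIs they numbered 0 in the Pdgfra and in the Cdh5 gate for the label Tbx1neo2/neo2. With median-of-ratios scaling they numbered 1 (Pdgfra, Foxn11089/1089), 2 (Cdh5) and 2 (Ptprc, both for the label Tbx1neo2/neo2). Thinning to 5000 UMIs gave shares of cells, in the order control, Tbx1neo2/neo2 and Foxn11089/1089, of 14.5%, 10.1% and 13.1% for *Ccl21a* in Epcam-positive cells, 66.8%, 71.9% and 59.3% for *Cxcl12* in Pdgfra-positive cells, 43.9%, 49.0% and 4.73% for *Cxcl12* in Epcam-positive cells and 8.01%, 13.7% and 7.55% for *Cxcr4*. *Ccr9* was then at 4.35% and 9.43% in the mutant libraries and *Ccr7* at 1.89% in Foxn11089/1089. At resolution 0.3, *Ccl21a* in medullary-like cells was 931 CPM in the control and 21.6 CPM in Foxn11089/1089, and *Ccr9* in thymocyte-like cells 2.03, 8.38 and 22.7 CPM. Receptors with under 100 UMIs and all endothelial values are limited by depth.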
